A study of Mus musculus with 6 samples.

Results

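Transcripts of 9 cell cycle brakes, namely 6 inhibitors of cyclin-dependent kinases (Cdkn1a, Cdkn1b, Cdkn2a, Cdkn2b, Cdkn2c and Cdkn2d) and the 3 pocket proteins (Rb1, Rbl1 and Rbl2), were compared between control and induced cardiosphere-derived cells of the mouse. The members were picked by gene symbol from a table of 54532 genes. All libraries came from iCDCs (the name in the labels, iECDCs in the study's methods), a C57BL/6 heart ventricle line of epicardial origin that had been immortalized with a lentiviral hTERT transgene under a CMV promoter and was used at passage 30. The 3 control libraries carried no further treatment in their labels. The 3 induced libraries came from the same line after 10 µM 5-aza (5-azacytidine, a cytidine analog that blocks DNA methyltransferases) for 3 days, and then IMDM with 2% FBS for 4 weeks. The study's methods describe another base medium and a shorter culture, name a serum-rich explant medium for routine growth of the line, and do not say how long the sequenced control cultures were kept. Drug, low serum and time in culture therefore cannot be told apart. The labels call the libraries of a group separate samples without saying whether they were separate cultures, so p-values measure the spread between these samples, which may be technical.

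The products of these genes act on the step from G1 into S phase. CDK inhibitors of the INK4 family (p16Ink4a, p15, p18 and p19, from Cdkn2a, Cdkn2b, Cdkn2c and Cdkn2d) bind Cdk4 and Cdk6 and keep D-type cyclins away, whereas those of the CIP/KIP family (p21 from Cdkn1a, p27 from Cdkn1b and p57 from Cdkn1c) bind cyclin-CDK complexes, with Cdk2 complexes as their best known target. Active CDKs phosphorylate the pocket proteins Rb, p107 (Rbl1) and p130 (Rbl2), which otherwise hold E2F transcription factors in check. In resting cells p130, or p107, joins E2F4 and the MuvB core in the DREAM complex, which represses cell cycle genes. In the heart these brakes are known for their part in the withdrawal of cardiomyocytes from the cell cycle.

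Of the 9 members, 7 passed the filter on low counts, and all 7 differed between the groups at an adjusted p under 0.05 (edgeR quasi-likelihood test, Benjamini-Hochberg adjustment over 14246 genes). Cdkn1a, Rb1 and Rbl2 rose, while Cdkn1b, Cdkn2c, Cdkn2d and Rbl1 fell. Cdkn2a and Cdkn2b had 0 reads in all 6 libraries. Change was common in these data: 64.8% of all tested genes were called, 32.6% higher and 32.2% lower in the induced libraries, and the groups did not overlap for 68.6% of genes. All 7 tested members had groups that did not overlap, a count to be read against that background. The median log2 fold change over all tested genes was -0.01. Because RNA was taken from whole cultures, a change in the share of cells that make a transcript and a change in RNA per cell cannot be told apart.

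**Figure D1:**
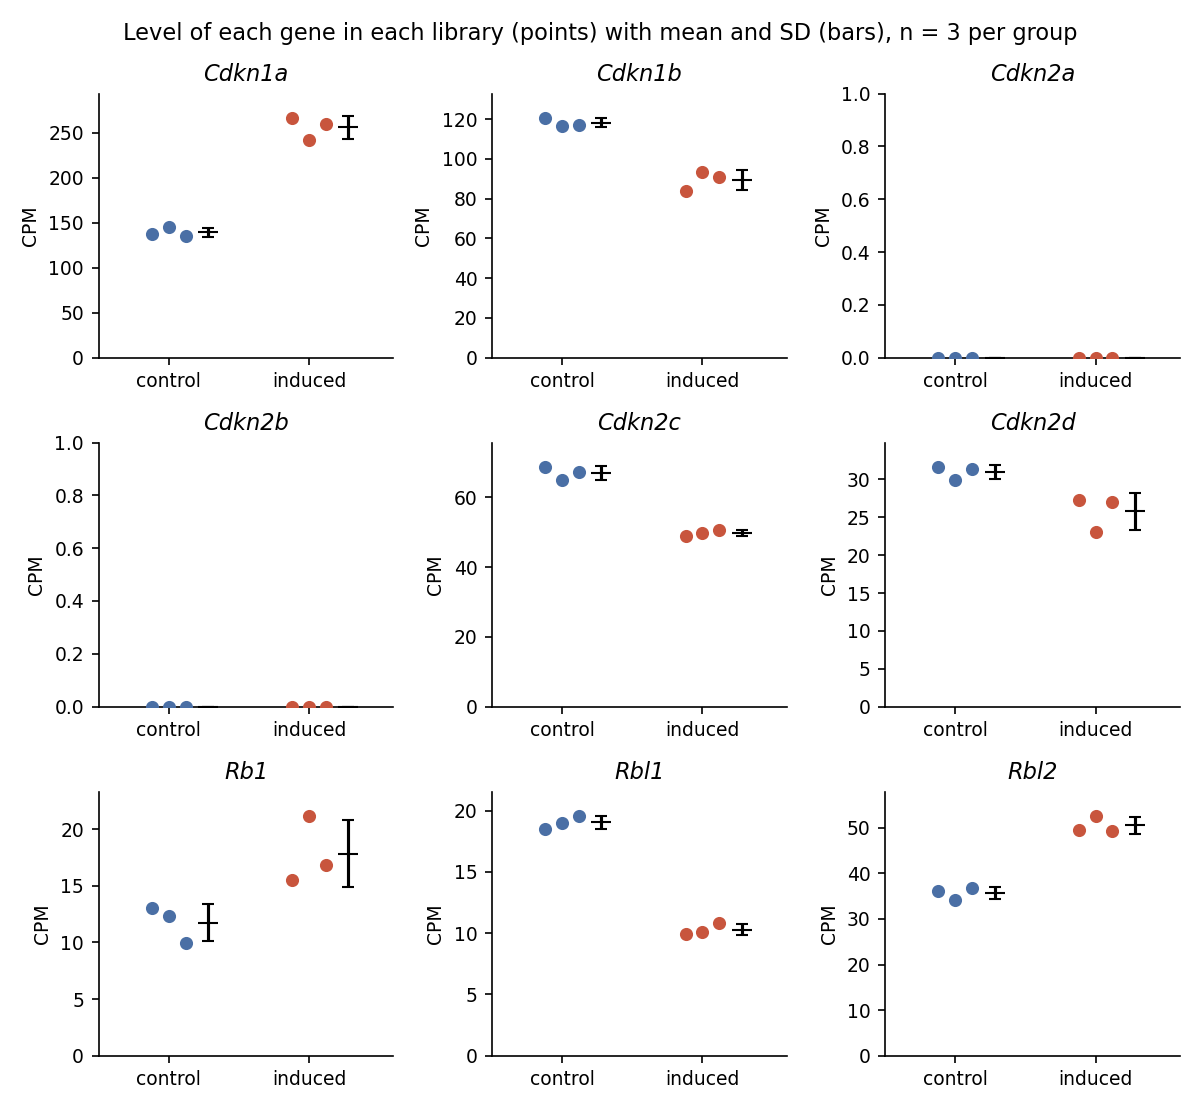
Level of each of the 9 genes in each library, in CPM (counts scaled to library size, adjusted between libraries by TMM, linear axes from 0). Points are libraries, and the bar beside each group is the mean with its SD (n = 3). For the 7 genes with reads the points of the groups do not overlap, and for Cdkn2a and Cdkn2b every point is at 0.

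**Figure D2:**
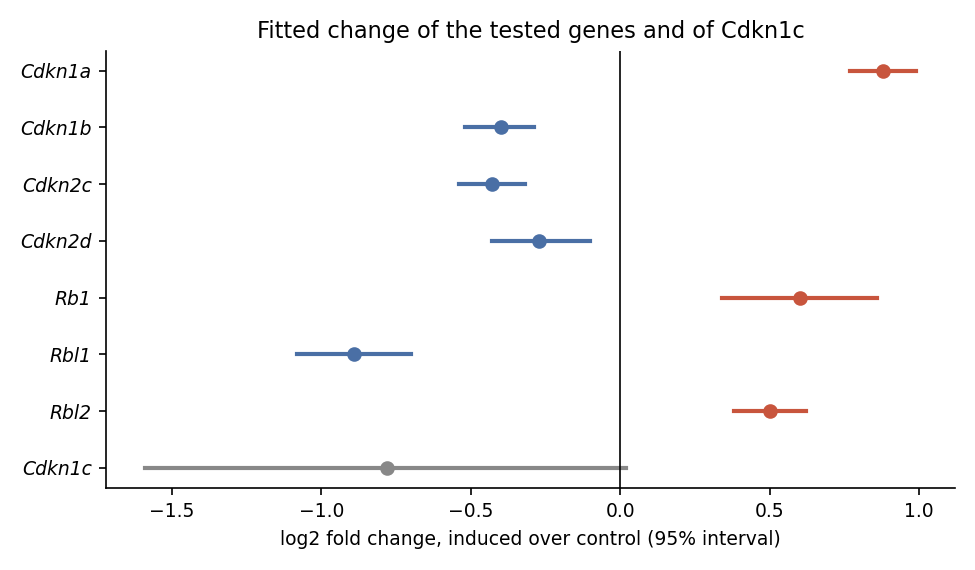
Fitted log2 fold change of the 7 tested genes and of Cdkn1c, induced over control, with 95% intervals (edgeR, 3 libraries per group). The interval of Cdkn1c, which is drawn in grey and was not called, reaches from -1.59 to 0.02, and the intervals of the 7 other genes lie on 1 side of 0.

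Cdkn1a (ENSMUSG00000023067, mm10 chr17:29090976-29100727, plus strand) encodes p21, the best known inhibitor under p53 control, and was the member with the smallest p. The control libraries held 137.9, 144.8 and 135.3 CPM, and the induced libraries held 266.8, 241.4 and 259.2 CPM. The lowest induced library was thus well above the highest control library. The mean went from 139.3 ± 4.91 to 255.8 ± 13.1 CPM (SD, n = 3), a 1.84-fold rise with a log2 fold change of 0.88 (SE 0.05, 95% interval 0.77 to 0.99, adjusted p = 4.05e-11). In size the change was not extreme for these data, since 20.4% of tested genes had a larger absolute log2 fold change. A minus-strand gene, AC167363.2, shares 7.68% of the exon bases of Cdkn1a and held 63 control and 40 induced reads. Its part in the count of Cdkn1a was not tested.

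The promoter of Cdkn1a is shown because p21 is the textbook target of p53. RefSeq (GRCm38.p6) gives 2 start sites for the gene. The 300 bases around each start, from 250 before it, were searched for the p53 response element consensus (20 letters with no spacer, cores intact, at most 1 other mismatch). This consensus is its own reverse complement, so the search covers both strands. The window of the first start site holds a match, 51 bases before the start, and that of the second holds none. Such a match occurs in 18 of 32851 RefSeq windows (0.0548%). The stretch at chr17:29090888-29090978 (plus strand, 5′ to 3′, matched letters in capitals) reads as follows.
Cdkn1a, first start site: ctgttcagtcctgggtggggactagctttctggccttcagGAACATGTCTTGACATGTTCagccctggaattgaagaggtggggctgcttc
The match describes letters only. Binding was not measured, and counts per gene do not show which start site was used.

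Cdkn1b (ENSMUSG00000003031, chr6:134920401-134925513, plus strand) encodes p27, which is known to accumulate in quiescent cells, largely through slower protein turnover. Its transcript was at 120.8, 116.7 and 116.9 CPM in the control libraries and at 83.9, 93.2 and 90.9 CPM in the induced libraries. Every induced library was below every control library. The mean fell from 118.1 ± 2.31 to 89.3 ± 4.86 CPM, a change of -24.4% (log2 fold change -0.40, SE 0.05, 95% interval -0.52 to -0.29, adjusted p = 2.92e-06). The 2 CIP/KIP members therefore moved in opposite directions.

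The remaining CIP/KIP gene, Cdkn1c (p57, not among the 9 members), was close to the limit of detection. It held 17, 14 and 25 reads in the control libraries and 12, 12 and 7 reads in the induced libraries. Its groups did not overlap either (0.713 to 1.25 CPM in control and 0.367 to 0.637 CPM in induced libraries). Its log2 fold change of -0.78 (SE 0.38, 95% interval -1.59 to 0.02) did not pass the test (adjusted p = 0.0804). The interval spans everything from a steep fall to no change, which these read numbers cannot narrow.

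Among the INK4 members, Cdkn2c and Cdkn2d were expressed and both fell. Cdkn2c (ENSMUSG00000028551, chr4:109660876-109667189, minus strand), which encodes p18, was at 68.8, 64.8 and 67.1 CPM in the control libraries and at 48.8, 49.7 and 50.7 CPM in the induced libraries. The induced values were tightly grouped, and all were below the control values. The mean fell from 66.9 ± 2.03 to 49.7 ± 0.972 CPM (-25.6%, log2 fold change -0.43, SE 0.05, 95% interval -0.54 to -0.32, adjusted p = 1.13e-06). Its relative change was nearly that of Cdkn1b.

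Cdkn2d (ENSMUSG00000096472, chr9:21288410-21291407, minus strand), which encodes p19Ink4d, showed the smallest change of the 7 tested members. The control libraries were at 31.7, 29.9 and 31.4 CPM, and the induced libraries were at 27.3, 23.0 and 27 CPM. The groups did not overlap, although induced replicate 2 was lower than the other two. The mean fell from 31.0 ± 0.984 to 25.8 ± 2.44 CPM (-16.9%, log2 fold change -0.27, SE 0.08, 95% interval -0.43 to -0.10, adjusted p = 0.00542). Without induced replicate 2 the log2 fold change was -0.18 (adjusted p = 0.0239). A larger absolute change was found for 61.0% of tested genes.

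Cdkn2a (ENSMUSG00000044303, chr4:89274471-89294653) and Cdkn2b (ENSMUSG00000073802, chr4:89306299-89311039) lie side by side on the minus strand of chromosome 4. Cdkn2a encodes p16Ink4a and, from another first exon, p19Arf, which blocks Mdm2 and so stabilizes p53. Cdkn2b encodes p15, a known target of TGF-beta. Neither gene received a read among the 116325285 reads of the 6 libraries. A count of 0 allows up to 3 reads, which is 0.15 to 0.159 CPM in a single library and 0.0258 CPM over all libraries together, counting error only. On the scale of FPKM (fragments per kilobase of transcript, scaled to library depth) the limit per library was 0.127 to 0.136 for Cdkn2a and 0.107 to 0.115 for Cdkn2b. The count of Cdkn2a is over the whole gene, so it covers both the p16Ink4a and the p19Arf transcripts. A count of 0 everywhere is not rare, as 24.8% of the 22046 coding genes in the table (5464 genes) had no read in any library.

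RefSeq places 2 start sites in Cdkn2a and 1 in Cdkn2b, and the sequence before each is shown because 5-aza acts on methylation at CpG pairs and the genes were without reads in both groups. The 200 bases from 250 to 51 before each start are given, on the minus strand, 5′ to 3′, with each CpG in capitals.
Cdkn2a, first start site (chr4:89294670-89294869, 34 CpG): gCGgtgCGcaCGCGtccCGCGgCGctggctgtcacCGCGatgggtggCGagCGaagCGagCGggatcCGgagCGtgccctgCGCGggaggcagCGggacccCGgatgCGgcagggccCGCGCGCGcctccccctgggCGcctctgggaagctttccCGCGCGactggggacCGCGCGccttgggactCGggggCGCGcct
Cdkn2a, second start site (chr4:89282243-89282442, 7 CpG): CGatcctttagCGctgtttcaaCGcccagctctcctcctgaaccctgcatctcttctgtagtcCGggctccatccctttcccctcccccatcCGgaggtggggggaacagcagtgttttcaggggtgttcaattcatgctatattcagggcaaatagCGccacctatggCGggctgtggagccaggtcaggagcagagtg
Cdkn2b (chr4:89311083-89311282, 10 CpG): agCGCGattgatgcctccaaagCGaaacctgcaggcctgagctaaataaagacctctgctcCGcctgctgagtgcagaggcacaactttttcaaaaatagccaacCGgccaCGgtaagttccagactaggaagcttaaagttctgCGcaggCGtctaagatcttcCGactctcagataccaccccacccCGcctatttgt
The first Cdkn2a start site, the outermost and the one that precedes the Arf exon, lies in the most CpG-rich of the member windows, with 45 CpG in 300 bases. The second, before the p16Ink4a exon, has 12, and that of Cdkn2b has 18. The median over all 32851 windows was 7, and that over the 11 windows of the 8 members found in the RefSeq table was 22. Methylation itself was not measured in these libraries.

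Reads were also sparse around both genes. Towards lower coordinates, the nearest gene with at least 10 reads in every library was Mtap (a methionine salvage enzyme), 93.4 kb from Cdkn2a, with 6934 control and 4903 induced reads. Mtap fell from 116.8 ± 1.15 to 86.1 ± 1.81 CPM (log2 fold change -0.44, adjusted p = 3.47e-07). Towards higher coordinates, the nearest such gene was the pseudogene Gm12669 at 2494.5 kb, and the nearest coding one was Tusc1 at 4023.1 kb. Between Cdkn2b and Gm12669 lie 21 genes, of which 3 code for protein. Of these 21, 17 had 0 reads in all libraries (81.0%, against 52.9% of all genes in the table), and together they received 6 control and 11 induced reads. Most of the 21 are noncoding, so the share over all genes is not a like background. Of the 3 coding genes, 1 had no reads, against 24.8% of all coding genes. Between Mtap and Cdkn2a lie 3 noncoding genes with 4 control and 6 induced reads. Genes at 0 were common beyond Mtap as well, where the cluster of type I interferon genes lies: of 55 genes between Hacd4 and Mtap, 41 had no reads (74.5%). Unlike the stretch above Cdkn2b, those 55 genes together held 5533 control and 4538 induced reads, most of them from Klhl9 (4481 and 3769). The coding neighbour Dmrta1 had 0 control and 7 induced reads. Whether the DNA of this stretch is intact in the line was not measured.

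**Figure D3:**
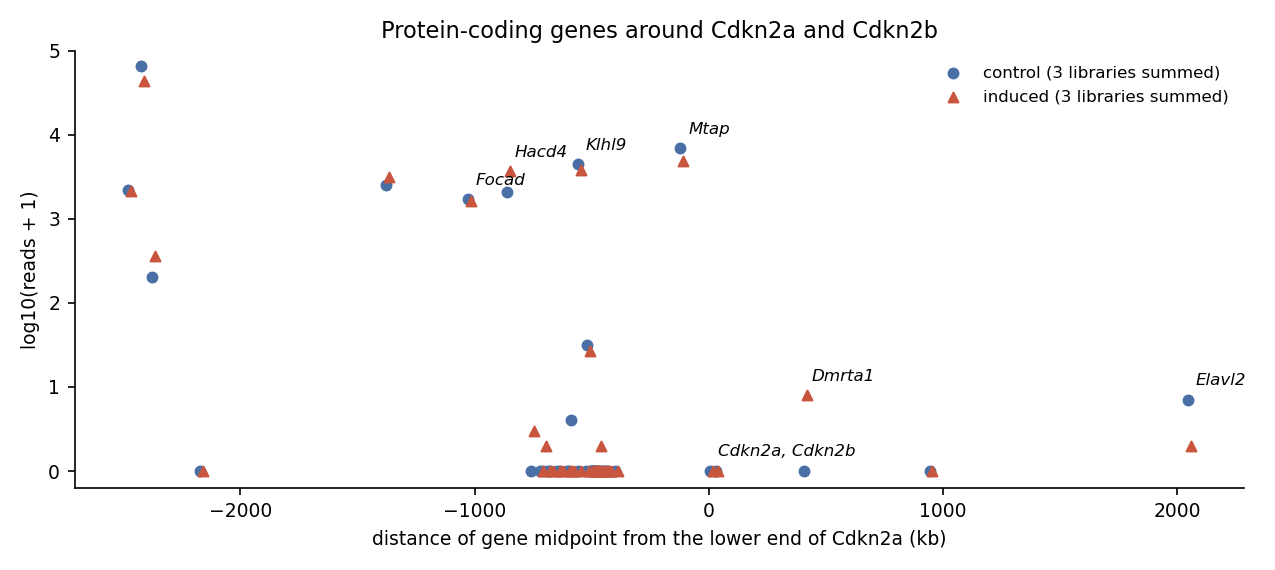
Reads of the protein-coding genes around Cdkn2a and Cdkn2b, summed over the 3 libraries of each group, as log10(reads + 1) against the distance of the gene's midpoint from the lower end of Cdkn2a in kb (circles control, triangles induced, set slightly apart sideways for legibility). Both genes sit at 0, Mtap on their left stands near 4 on the log10 scale, and the coding genes to their right have few or no reads.

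The pocket proteins split as the inhibitors did. Rb1 (ENSMUSG00000022105, chr14:73183673-73325822, minus strand), the retinoblastoma gene, was at 13.0, 12.3 and 9.91 CPM in the control libraries and at 15.5, 21.2 and 16.8 CPM in the induced libraries. All induced libraries were above all control libraries, with the widest relative spread among the tested members. The mean rose from 11.7 ± 1.63 to 17.8 ± 2.98 CPM (1.52-fold, log2 fold change 0.60, SE 0.12, 95% interval 0.34 to 0.86, adjusted p = 0.00031). Of its exon bases, 14.9% overlap Lpar6 and Rcbtb2 on the other strand, and the strand setting of the counting is not given in the sources used here. Rcbtb2 fell (log2 fold change -0.47, adjusted p = 3.85e-06), and Lpar6 was not called (-0.34, adjusted p = 0.104). The part of both in the count of Rb1 was not tested.

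Rbl1 (ENSMUSG00000027641, chr2:157145893-157204534, minus strand) encodes p107, which is known to be made mostly in cycling cells. It was at 18.5, 19.0 and 19.6 CPM in the control libraries and at 9.93, 10.1 and 10.8 CPM in the induced libraries. The groups were far apart next to the spread inside each. The mean fell from 19.0 ± 0.519 to 10.3 ± 0.446 CPM (-46.0%, log2 fold change -0.89, SE 0.09, 95% interval -1.08 to -0.70, adjusted p = 8.01e-08). In absolute log2 fold change Rbl1 and Cdkn1a were the largest of the 7 tested members and nearly equal, with opposite signs.

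The promoter of Rbl1 is shown because the gene is itself a known E2F target. The 300-base windows were searched on both strands for the E2F site in its 4 strict forms, TTTCCCGC, TTTCGCGC, TTTGCCGC and TTTGGCGC. A match occurs in 744 of all windows (2.26%) and in 2 of the 11 member windows, those of Rbl1 and of the first start site of Cdkn2a. In Rbl1 it begins 18 bases before the start, within chr2:157204535-157204592 (minus strand, 5′ to 3′, matched letters in capitals).
Rbl1: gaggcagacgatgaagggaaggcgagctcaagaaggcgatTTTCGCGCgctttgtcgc
In Cdkn2a the match begins 99 bases before the start. No factor binding was measured.

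Rbl2 (ENSMUSG00000031666, chr8:91070057-91123844, plus strand) encodes p130, the pocket protein that prevails in resting cells. It was at 36.1, 34.2 and 36.7 CPM in the control libraries and at 49.6, 52.7 and 49.4 CPM in the induced libraries, without overlap. The mean rose from 35.7 ± 1.31 to 50.6 ± 1.82 CPM (1.42-fold, log2 fold change 0.50, SE 0.06, 95% interval 0.38 to 0.62, adjusted p = 4.6e-07). Aktip and Gm45464 on the minus strand overlap 21.0% of its exon bases. Aktip rose as well, from 23.5 to 35.6 CPM (log2 fold change 0.60, adjusted p = 3.35e-07), and its part in the count of Rbl2 was not tested.

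Levels of different genes were compared per transcript length, in the deposited FPKM values. In the control libraries the order was Cdkn1a (38.9 ± 1.29 FPKM), Cdkn1b (25.7 ± 0.512), Cdkn2c (24.7 ± 0.781), Cdkn2d (19.5 ± 0.653), Rbl2 (4.68 ± 0.182), Rbl1 (3.15 ± 0.0892) and Rb1 (1.94 ± 0.266). In the induced libraries it was Cdkn1a (72.0 ± 3.79 FPKM), Cdkn1b (19.6 ± 1.04), Cdkn2c (18.5 ± 0.361), Cdkn2d (16.4 ± 1.57), Rbl2 (6.68 ± 0.23), Rb1 (2.96 ± 0.49) and Rbl1 (1.72 ± 0.075). The ranges of Cdkn1b and Cdkn2c overlapped in both groups, and every other pair of neighbours with reads was separated in all libraries. The order thus changed at a single place, where Rb1 and Rbl1 traded ranks.

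The make-up of each family shifted accordingly. Of the summed FPKM of the 6 inhibitors, Cdkn1a took 34.9%, 37.2% and 35.0% in the control libraries and 58.2%, 55.9% and 56.6% in the induced libraries, a gain of 21.2 percentage points. The share of Cdkn1b went from 23.6% ± 0.231 to 15.5% ± 1.29 (SD, n = 3), that of Cdkn2c from 22.7% ± 0.573 to 14.7% ± 0.579, and that of Cdkn2d from 17.9% ± 0.532 to 12.9% ± 0.798. With shares of counts, which are not per length, that of Cdkn2d was 8.73% and 6.12%, a difference of -2.61 in place of -5.02 percentage points. Among the pocket proteins, Rbl1 held 30.8%, 32.6% and 33.4% in the control libraries and 15.3%, 13.9% and 16.2% in the induced libraries. Rbl2 went from 47.9% ± 1.68 to 58.9% ± 1.79, and Rb1 from 19.8% ± 2.57 to 25.9% ± 2.63. For each of these shares the groups did not overlap, and the exact two-sided permutation test gave p = 0.1, the smallest value that 3 against 3 libraries allow, so none can pass 0.05.

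**Figure D4:**
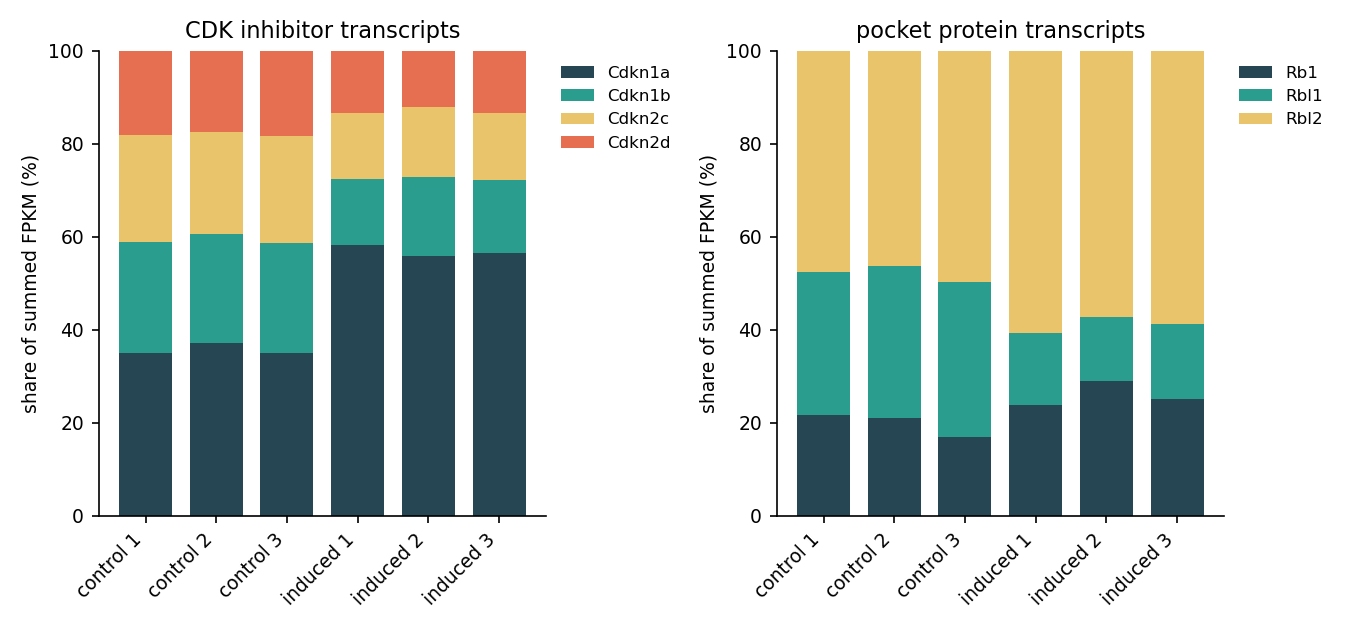
Share of each gene in the summed FPKM of the CDK inhibitor transcripts (left) and of the pocket protein transcripts (right), in percent, with a stacked bar per library. Cdkn1a fills 34.9% to 37.2% of the control bars and 55.9% to 58.2% of the induced bars, and Rbl1 shrinks from 30.8% to 33.4% to 13.9% to 16.2%.

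The inhibitors summed to 108.8 ± 1.22 FPKM in the control and 126.4 ± 4.53 FPKM in the induced libraries, and the pocket proteins to 9.77 ± 0.158 and 11.4 ± 0.705 FPKM. Their kinase partners Cdk2, Cdk4 and Cdk6 together went from 163.9 ± 4.15 to 109.0 ± 6.7 FPKM. The ratio of inhibitor to kinase transcripts was accordingly 0.692, 0.654 and 0.646 in the control libraries and 1.14, 1.2 and 1.14 in the induced libraries. Of the inhibitors only Cdkn1a rose. For the expressed INK4 genes against their own partners Cdk4 and Cdk6, the ratio was 0.279 ± 0.0145 and 0.332 ± 0.00717. Both INK4 genes in that ratio fell. Cdk4 fell too (mean 510.6 and 328.5 CPM, log2 fold change -0.64), while the less abundant Cdk6 rose (mean 42.2 and 57.1 CPM, 0.44). The ratio of Cdkn1a to Cdkn1b was 1.51 ± 0.0682 and 3.68 ± 0.38, and that of Rbl2 to Rbl1 was 1.49 ± 0.06 and 3.9 ± 0.246. All 4 ratios and all 3 sums were separated between the groups (exact permutation p = 0.1 for each, the smallest possible). These are ratios of transcripts, and protein was not measured.

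The genes around the members in the pathway were read from the same fit. Their lists were set out by function, with earlier results of these data known. The counts of each list are to be read against all tested genes, of which 64.8% were called, 32.6% higher and 32.2% lower. Of 11 G1 cyclins and kinases, 2 rose, 6 fell and 3 did not pass the test (median log2 fold change -0.42). Cdk4, the main INK4 target, fell by 0.64 on the log2 scale, while Cdk6, the other, rose by 0.44. Cyclin D1 (Ccnd1) fell by 0.58 and cyclin D2 (Ccnd2) rose by 0.23. Cyclins E1 and E2 (Ccne1 and Ccne2), partners of Cdk2 and known E2F targets, fell by 1.20 and by 1.00, and Cdk2 itself fell by 0.42. Of 10 E2F and DP factors, only some of which pair with the pocket proteins, 2 rose and 6 fell (median -0.24). E2f7 (-1.92) and E2f2 (-1.25) fell, whereas E2f1 rose by 0.27. Of the dimer partners, Tfdp1 fell by 0.60 (mean 119.8 and 79.0 CPM) and Tfdp2 rose by 0.66 (mean 39.7 and 62.7 CPM). E2f4, the usual partner of p130, fell by 0.17.

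Of 8 genes of the MuvB core and its partners, 2 rose and 4 fell (median -0.17). The largest falls were those of Foxm1 (-2.09) and Mybl2 (-2.00), the activators that MuvB joins in cycling cells. In the core itself, Lin9 fell by 0.95, Rbbp4 fell by 0.16 and Lin52 rose by 0.64, and Lin37 and Lin54 were not called. The kinase Dyrk1a, which phosphorylates Lin52 in the assembly of DREAM, rose by 0.15 and was not called by DESeq2 or with library totals as the only scaling. All 16 S phase targets of E2F fell (median -1.19, from -1.94 to -0.30), among them Mcm5 (-1.79), Mcm6 (-1.39) and Mcm7 (-1.22) of the replicative helicase and cyclin A2 (Ccna2, -1.94). All 16 G2 and M phase targets of DREAM fell as well (median -2.01, from -2.39 to -1.46), among them Bub1b (-2.26), Cdc20 (-2.39), Kif20a (-2.37) and the proliferation marker Mki67 (-2.01).

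**Figure D5:**
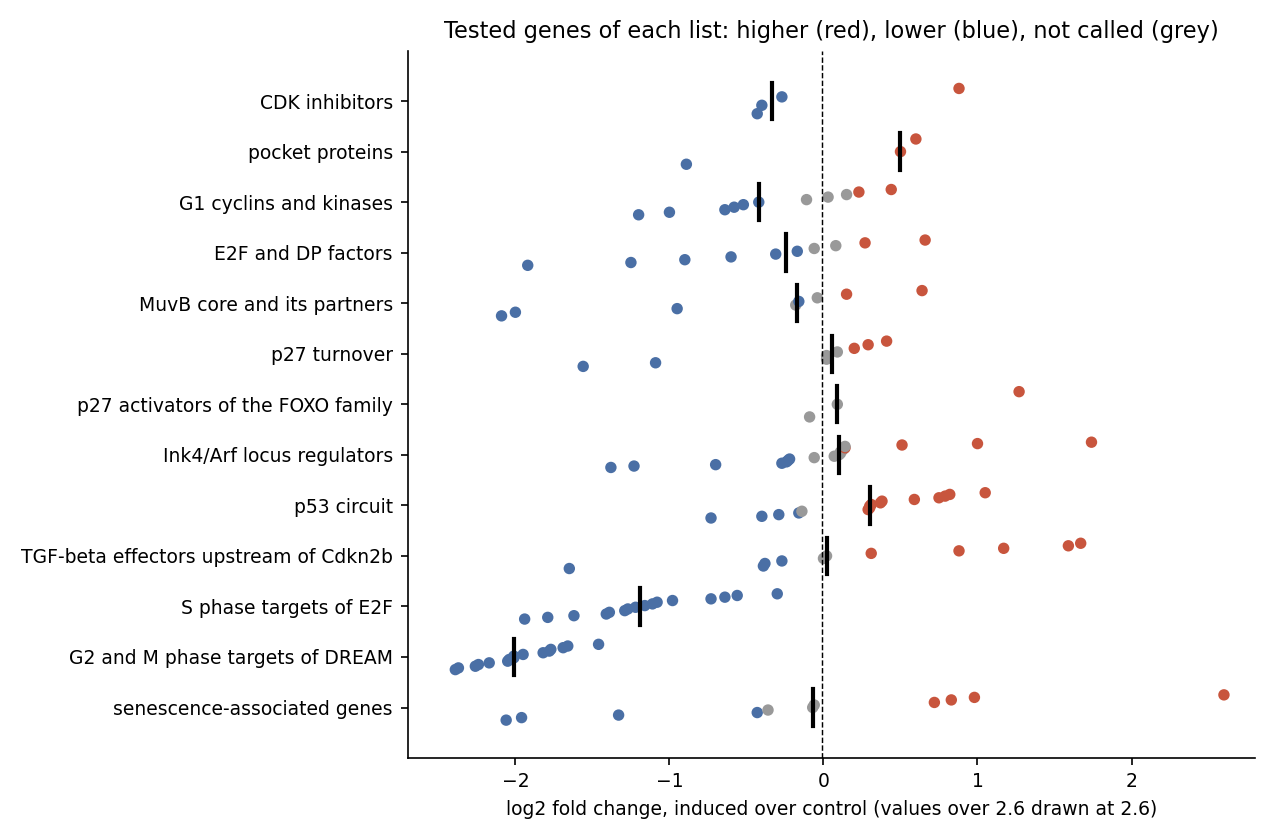
Log2 fold change, induced over control, of the tested genes of each list. Red is higher, blue lower and grey not called, with points set apart vertically for legibility. The black tick is the list's median, and the dashed line is the median of all tested genes (-0.01). The point of Igfbp5 (6.43) is drawn near the right edge, below its value. The S phase and G2 and M phase target lists lie wholly to the left of 0, with medians of -1.19 and -2.01, while the regulator lists spread to both sides.

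Upstream of the members, the genes that control p27 were mixed. Of 8 genes of its turnover, 3 rose and 2 fell (median 0.06). Skp2 and Cks1b, the F-box protein and cofactor that recognize phosphorylated p27, fell (-1.56 and -1.09), while the ligase subunit Skp1 rose by 0.20. Of the 3 FOXO factors known to activate Cdkn1b, Foxo1 rose by 1.27, and Foxo3 and Foxo4 were not called. Of 16 genes of the p53 circuit around Cdkn1a, 11 rose, 4 fell and 1 did not pass (median 0.30). The p53 targets Sesn2 (1.05), Btg2 (0.82) and Ccng1 (0.79) had the smallest p of the list and rose on the log2 scale by about as much as Cdkn1a. Among the genes that fell were the p53 targets Bbc3 (-0.40) and Bax (-0.16), which were named after their values were seen. The transcript of p53 itself (Trp53) went from 188.4 ± 5.68 to 113.2 ± 6.59 CPM (-0.73).

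Of 19 regulators of the Ink4/Arf locus, all with reads although the locus had none, 4 rose, 7 fell and 8 did not pass (median 0.10). These counts, and those of the lists below, stand beside 64.8% of all tested genes called. Ezh2, the methyltransferase of Polycomb complex PRC2, fell by 1.38, and its partner Suz12 fell by 0.24. Among the Polycomb readers, Cbx2 fell by 1.23 and Cbx7, best known for repression of this locus, rose by 1.00. Bmi1 had a log2 fold change of 0.12 and was not called. Id1, which restrains activation of p16Ink4a by Ets factors, rose from 35.1 ± 1.42 CPM by 1.74 on the log2 scale. Of 11 TGF-beta effectors upstream of Cdkn2b, 5 rose and 4 fell (median 0.02). Tgfb2, Smad7 and Tgfb3 rose by 1.67, 1.59 and 1.17, and Myc, a repressor of Cdkn2b and Cdkn1a, fell by 1.65. Of 11 genes associated with senescence, a lasting arrest in which p16Ink4a and p21 are the usual markers, 4 rose and 4 fell (median -0.07). Igfbp5 went from 0.841 ± 0.38 to 73.3 ± 9.95 CPM (log2 fold change 6.43) and Igfbp7 rose by 0.98, while the lamin gene Lmnb1 fell by 2.06 and Hmgb2 fell by 1.96.

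The profiles most like those of the members with the smallest p in each direction were sought among 9457 genes of at least 10 CPM on average, by Pearson correlation of log2 CPM over the 6 libraries. For Cdkn1a these were Nkain4 (r = 0.9999), Mcoln1 (0.9998) and Pla2g16 (0.9997). For Rbl1 they were Prim1 (0.9997), Tpm1 (0.9996) and Ptpn5 (0.9996). The 6 libraries form 2 groups, so any gene that separates them cleanly scores high, and 462 genes exceeded 0.99 with Cdkn1a and 477 with Rbl1. The likeness is given as a description.

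The libraries held 19041133 to 19823369 counts each, and the totals of the groups overlapped. Induced replicate 2 differed more from the other induced libraries (chi-square over degrees of freedom 8.91 and 8.04) than those did from each other (4.68). All 7 cardiosphere and epicardial markers had reads in both groups, with 4 called higher and 3 lower. They summed to 4283.3 to 4633.2 CPM in control and 7173.5 to 7329.8 CPM in induced libraries. Col3a1 held most of both sums (mean 3409.6 and 5547.2 CPM). Tbx18 (log2 fold change -0.33), Pdgfra (-0.73) and Ly6a (-0.57) fell, while Upk3b (1.89), Col3a1 (0.70), Thy1 (0.54) and Eng (0.12) rose. Of 8 cardiomyocyte markers, 2 were tested and 1 rose (872 control and 3472 induced reads for the list). The gene that rose, Tnnt2, held 778 and 3310 of these reads, and Myh6, Actn2, Nppa and Pln were at 0 in the control libraries, with 1 to 8 induced reads each. Ryr2 held 1 control and 29 induced reads and Myh7 held 3 and 4, and neither was tested. Tnni3 held 90 and 115 reads and was not called. The 5 endothelial markers summed to 23 and 44 reads and none was tested. Tek held 7 and 32 of these reads, Kdr 11 and 5, Pecam1 3 and 6, Cdh5 1 and 1, and Emcn 1 and 0. Of 6 leukocyte markers, 4 were at 0 throughout and 2 were tested (summed 23.6 to 25.8 and 36.4 to 42.7 CPM). Cd68 rose (log2 fold change 3.89) and Csf1r fell (-1.05). The markers named in this paragraph were picked after their values were seen. The part of a changed mixture of cells in the values of the members was not tested.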

How the data were processed

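RNA of 3 control and 3 induced samples had been sequenced from NEBNext Ultra libraries. The authors deposited 1 table with whole-number read counts and FPKM values per gene and library. The submitters' processing notes name mm10, HISAT2 2.0.5, featureCounts 1.5.0-p3 and DESeq2 1.16.1, the study's methods name DESeq with another number of replicates, and the strand setting is not given in the sources used here. Reads of overlapping genes may therefore be split or lost. The table also holds columns of the authors' own comparison, namely a signal per group (their mean of normalized counts), log2 fold changes and p-values that the authors made with DESeq2 or DESeq. Neither these nor their Gene Ontology tables were used.

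Counts were tested with edgeR 4.0.16 in R 4.3.3 (quasi-likelihood F test, two-sided, TMM scaling, filterByExpr with a minimum count of 10 and a minimum total of 15, no covariates). This left 14246 of 54532 genes, with 99.9% of reads. Adjusted p is Benjamini-Hochberg over all tested genes, with a threshold of 0.05, and intervals are at 95%. CPM were computed from the counts, and FPKM were used as deposited. Shares, sums and ratios of FPKM were compared by exact permutation tests in scipy 1.17.1. Limits for a count of 0 take 3 reads. Promoter windows came from RefSeq (GRCm38.p6), where 8 of the 9 members were matched. The gene coordinates are those of the deposited table. Overlaps were taken from GENCODE annotation of the same build, whose coordinates equalled the table's for the 9 members. Scripts were tested on simulated counts. Replicates of a group differed beyond sampling noise in every pair (chi-square divided by its degrees of freedom, 2.56 to 8.91), and all 6 libraries were kept.

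The members and gene lists were chosen with earlier results of these data known. Named genes were the members, Cdkn1c, any gene of the G1, E2F, MuvB, p27 turnover, FOXO and Ink4/Arf lists, the 4 with the smallest p of each other pathway list and the 3 genes most like Cdkn1a or Rbl1 in profile. Genes overlapping a member and the neighbours of Cdkn2a were named after their values were seen. Alternatives were DESeq2 1.42.0, limma 3.58.1 on log2(FPKM + 1) and log2(FPKM + 0.1), other scalings and filters, a replicate block, a threshold of 0.01 and each library left out.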

Additional observations from a re-analysis of the deposited data

How the results depend on the processing

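The 7 called members kept their direction and their side of the threshold under all alternatives run (119 of 119 comparisons, Cdkn1c included, which was not called under any of its 14 alternatives). The log2 fold changes ranged from 0.84 to 0.92 for Cdkn1a, -0.44 to -0.36 for Cdkn1b, -0.46 to -0.40 for Cdkn2c, -0.31 to -0.18 for Cdkn2d, 0.43 to 0.69 for Rb1, -0.93 to -0.61 for Rbl1 and 0.44 to 0.53 for Rbl2. The adjusted p of Cdkn2d, the weakest call, ran from 0.00176 to 0.0277. Cdkn1c was removed by the stricter filter and so has no value there. Genes called over the whole table numbered 9225, and 7783 to 9765 under the alternatives, 8514 to 9348 with a library left out. With shares of counts in place of FPKM, the share differences became -15.6 percentage points for Rbl1, -12.0 for Cdkn1b, -6.99 for Cdkn2c and -2.61 for Cdkn2d, all in the same direction, since longer transcripts then weigh more. In the MuvB list 1 gene was higher, not 2, under DESeq2, which left all other list counts as given. Under library totals alone, 1 gene was higher in the MuvB list, 2 in p27 turnover (not 3), 3 among the Ink4/Arf regulators (not 4) and 3 among the cardiosphere and epicardial markers (not 4), while 7 were lower among the G1 cyclins and kinases (not 6) and 5 in the p53 circuit (not 4). With library totals alone the median of all genes moved by -0.04 and 46.5% of calls were higher, against 50.3%.

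Samples with the same number in the labels did not deviate together (correlations -0.002, -0.015 and 0.027). Those with different numbers gave correlations of -0.056 to 0.053. Such values cannot tell whether samples were handled in pairs. With a replicate block 9063 genes were called, and no call among the members changed. Cdkn2a and Cdkn2b could not be fitted in any setting, and below about 0.15 CPM in a library their expression was beyond the depth of these libraries.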
